A study of Mus musculus with 27 samples.

Results

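Expression of 8 mouse genes of the Nodal signalling pathway was followed in Zfp512b knockout embryonic stem cells and their differentiated derivatives. The genes were chosen by name for their role in the pathway and not by any measured value. They are the ligands Nodal and Gdf3, the antagonists Lefty1, Lefty2 and Cer1, the co-receptor Tdgf1, the receptor Acvr2b and the transcription factor Foxh1. All 8 are listed in each of the 8 deposited tables, which hold 25209 genes apiece.

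The RNA came from V6.5 mouse embryonic stem cells, 27 libraries in all, and 3 genotypes were compared at each of 4 stages. The genotypes were the unedited parental line (WT) and the Zfp512b knockout clones KO4 and KO8, in which a triple transcription terminator was inserted into the gene. Each knockout genotype is thus 1 clone, and the study chose these clones because their growth differed least from WT. The stages were naive cells held in LIF with MEK and GSK3 inhibitors (Day 0, 3 libraries per genotype), primed cells after withdrawal of the inhibitors (Day 2, 2 libraries), embryoid body cultures directed towards cardiomyocytes (CM, Day 7.5, 2 libraries) and embryoid bodies treated with retinoic acid to give neural progenitors (NPC, Day 10, 2 libraries). The labels do not say whether libraries of a group came from separate cultures, so the p-values measure the spread between these libraries, which may be technical. Libraries held between 34.2 M and 39.7 M reads on genes in naive cells and between 15.1 M and 19.3 M at the other stages (M, 1000000 reads).

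Nodal is a secreted ligand of the TGF-β family. It signals through activin receptors, with Tdgf1 (Cripto) as an obligate co-receptor, to SMAD2 and SMAD3, which enter the nucleus with SMAD4 and are brought to target genes by partners such as FOXH1. Nodal, Lefty1 and Lefty2 are themselves targets of the pathway, so that the ligand feeds its own transcription and also its own inhibitors. Stem cells in culture express the pathway, and in the embryo it sets up the primitive streak, mesoderm and endoderm.

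The genes lie on 6 chromosomes of mm9, the build used for alignment. Lefty2 (chr1:182823239-182829234, plus strand) and Lefty1 (chr1:182865153-182868531, plus strand) are neighbours on chromosome 1, 35918 bases apart. Nodal spans chr10:60880720-60888086 on the plus strand in 3 exons, and its first intron runs over 4486 bases. The motif TGTGGATT, bound by FOXH1 and searched on both strands, was found 2 times in this intron. Of 7614 first introns at least this long, 1.47% held at least 2 matches in their first 4486 bases. The stretches around both matches are shown because Nodal and Foxh1 are both followed here, with the motif in capitals (read on the other strand, AATCCACA):

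Nodal intron, chr10:60882017-60882084: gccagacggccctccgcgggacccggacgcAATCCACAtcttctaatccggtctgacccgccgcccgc

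Nodal intron, chr10:60882811-60882878: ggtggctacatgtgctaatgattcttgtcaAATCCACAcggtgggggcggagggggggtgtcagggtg

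The 1000 bases upstream of the annotated start held no TGTGGATT in 7 of the 8 genes. Cer1 had 2 matches there, and 3.59% of 22354 upstream windows of protein-coding genes held at least 1. The 5-base motif CAGAC, the core of the SMAD binding element, occurred 3 times in the 300 bases upstream of Lefty1, of Lefty2 and of Cer1, against 3.44% of all such windows with 3 or more, and 46.9% with at least 1. It occurred 2 times for Gdf3 and Foxh1, 1 time for Tdgf1 and 0 times for Nodal and Acvr2b. A match of letters is a description and does not show binding. In Lefty1 and Lefty2 2 of the matches were 29 bases apart in both genes, and the stretches below also share a run of 19 bases. CAGAC is in capitals:

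Lefty2 upstream, chr1:182823010-182823129: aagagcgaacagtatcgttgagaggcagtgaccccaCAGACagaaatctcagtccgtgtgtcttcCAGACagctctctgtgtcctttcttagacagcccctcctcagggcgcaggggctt

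Lefty1 upstream, chr1:182864943-182865062: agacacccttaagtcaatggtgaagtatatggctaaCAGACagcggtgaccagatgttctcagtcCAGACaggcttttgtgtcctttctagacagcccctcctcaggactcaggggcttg

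Lefty1 and Lefty2 are close paralogues, which bears on how their reads can be told apart. Their coding sequences are both 1104 bases long and were identical at 1014 positions (91.8%) when aligned without gaps, with a longest identical run of 140 bases. The least alike stretch of 90 bases among those that start at a codon, coding positions 37 to 126, still shared 63, and the bases that differ are in capitals below. How reads with several matches were counted is not given in the sources used here, so values of these genes may hold some reads of the other.

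Lefty1 coding: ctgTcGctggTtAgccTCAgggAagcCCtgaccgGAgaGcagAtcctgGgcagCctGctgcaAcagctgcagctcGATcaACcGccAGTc

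Lefty2 coding: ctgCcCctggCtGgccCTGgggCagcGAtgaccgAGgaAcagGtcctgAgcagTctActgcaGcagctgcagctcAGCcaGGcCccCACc

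The level of the genes across the stages was read from the pooled means in the tables, each over the WT libraries and those of 1 clone, scaled to a sum of 1000000 in each table. The tables were normalized separately, a pooled mean has no replicate error, and levels are compared here for 1 gene between stages and not between genes. Nodal, Tdgf1 and Lefty2, 3 of the 8 genes, were at their highest in naive or primed cells and at their lowest in NPCs. Nodal had a level of 91.3 to 93.3 in naive cells, 68.5 to 71.4 in primed cells, 18.2 to 27.7 in CMs and 3.83 to 5.41 in NPCs, with the lower and the higher of the 2 tables given. The ranges of the 4 stages did not overlap.

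Gdf3, which can act through the same receptors, followed a like order (133 to 134 in naive cells and 108 to 110 in primed cells), but its ranges in CMs (1.5 to 4.75) and NPCs (2.43 to 3.6) overlapped. Tdgf1 was higher in primed cells (895 to 935) than in naive cells (419 to 449), and had 77.8 to 81.5 in CMs and 7.41 to 10.5 in NPCs. The antagonists Lefty1 and Lefty2 differed in their order. Lefty1 had 142 to 162 in primed cells against 116 to 124 in naive cells, whereas Lefty2 had 387 to 430 in naive cells and 75.8 to 94.2 in primed cells. In CMs and NPCs the Lefty1 ranges overlapped (5.04 to 19.5 and 6.46 to 10.2), and Lefty2 had 20.8 to 38.7 in CMs and 7.64 to 10.7 in NPCs.

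The remaining genes departed from this order. Foxh1 in CMs (44.5 to 66.4) overlapped its ranges in naive cells (57.9 to 61.7) and primed cells (47 to 49.3), and had 2.04 to 3.13 in NPCs. Acvr2b, a type II receptor shared by activins, Nodal and other ligands of the family, ran the other way, with 93.9 to 95.9 in naive cells, 99.8 to 102 in primed cells, 188 to 217 in CMs and 221 to 222 in NPCs. Cer1, a secreted antagonist made by endoderm and early mesendoderm, was found at more than a few reads in CMs only (13 to 15.4). It had 0 reads in the 9 naive libraries together, which allows a level of up to 0.0093 (3 reads), 2 reads in 1 primed WT library and 1 read in 1 NPC library of KO8. These limits cover counting error only.

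**Figure D1:**
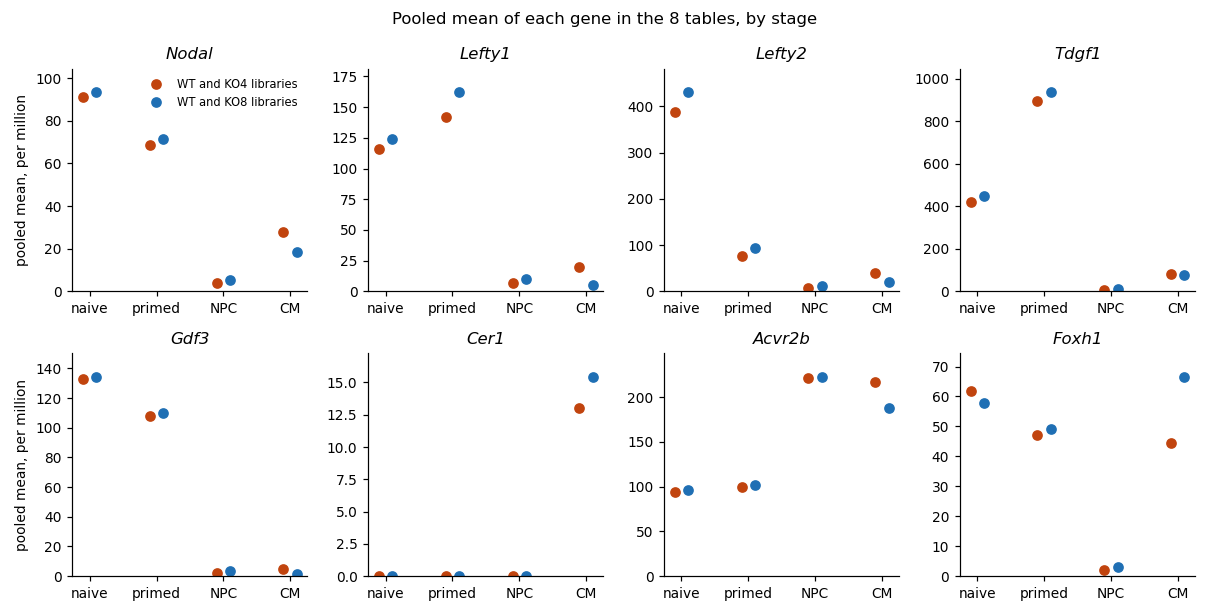
Pooled mean of each gene scaled to a sum of 1000000 per table (vertical axes, linear and starting at 0) at the 4 stages, with 1 point for the table of WT and KO4 libraries and 1 for the table of WT and KO8 libraries. Nodal, Lefty1, Lefty2, Tdgf1 and Gdf3 are highest in naive or primed cells, Acvr2b is highest in NPCs (221 to 222), and Cer1 is seen in CMs (13 to 15.4).

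Values per library were recovered from the pooled means, which are printed to 10 significant digits. Each is a sum of whole reads, divided by the size factors of the libraries (their scaling factors), and for most genes of moderate level only 1 set of whole reads gives both tables of a stage. Libraries are called A and B, A being the one with the larger size factor. On simulated CM tables, 100% of 11421 sets recovered for pooled means up to 500 were the true ones, and 99.64% between 500 and 900. The simulation drew reads independently, with 1 fixed spread between libraries for all genes. Between 500 and 900 it gave a set for 78.9% of genes, against 100% in the real CM data, so it differs from them. Of the 8 genes, 6 were recovered and tested in CMs, 6 in NPCs and 1 (Foxh1) in primed cells. The others are given as pooled means: none was recovered in naive cells, where too many sets of reads for 9 libraries give the same digits, and Acvr2b was recovered at no stage. Tests used limma on log2(normalized count + 1) over the 6 libraries of a stage, with Benjamini-Hochberg adjustment over all genes tested, and a fold change on this scale understates the change of low genes. WT libraries are shared by the comparisons of both clones.

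The targeted gene was lowered wherever it could be read. Zfp512b had 929 and 977 normalized counts in the primed WT libraries, 191 and 219 in KO4 and 184 and 154 in KO8. In CMs it had 1118 and 1060 in WT, 184 and 209 in KO4 and 155 and 173 in KO8. The labelled cell types were compared with their markers. In CMs, 2 of 7 cardiomyocyte markers were recovered, and the sum of Nkx2-5 and Ryr2 was 2235 to 2777 in WT, 2202 to 2343 in KO8 and 24 to 38 in KO4. Both recovered cardiomyocyte markers were thus close to absent from the KO4 libraries labelled CM. In these, Pax6, a neural gene, had 2795 and 2787 normalized counts against 55 and 65 in WT. Nkx2-5, Ryr2 and Pax6 each had a pooled mean above 900 in a CM table. Their reads were recovered on the condition that libraries of a group lie near each other, so their accuracy is limited as for Foxh1 below. Their pooled levels need no recovery. In the KO4 and KO8 tables they were 34 and 71.1 (Nkx2-5), 36.6 and 60.8 (Ryr2) and 79.3 and 4.2 (Pax6). In a bulk culture, fewer cells of a type and less RNA per cell cannot be told apart. For every CM result of KO4 the change in cell types cannot be told apart from a change within cells. In NPCs the endoderm markers Gata6 and Gata4 had their highest pooled level of any stage (391 to 445 and 340 to 376). Sox17, Foxa2, Afp and Ttr were highest in CMs. Of 4 neural progenitor markers tested in NPCs, Fabp7 and Pax6 were called higher in both clones. Their log2 fold changes were 3.03 and 1.23 in KO4 and 3.89 and 1.13 in KO8. Sox1 was called in KO8 alone and Neurog2 in neither clone. Cell types and changes within cells can thus not be told apart in NPCs either.

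In CMs Nodal, Lefty1 and Lefty2 moved in opposite directions in the 2 clones. KO4 had more Lefty1, Lefty2 and Nodal than WT, and KO8 had less of each. Of the 6 genes tested, 3 were called higher and 2 lower in KO4, where 54.5% of 9509 genes were called (23.3% higher and 31.3% lower). In KO8, 1 was called higher and 5 lower, where 23.4% of genes were called (10.9% higher and 12.5% lower). The median log2 fold change of the 6 was 0.55 in KO4 and -0.97 in KO8, beside -0.06 and -0.01 over all genes tested. The libraries of each clone and of WT did not overlap for any of the 6 genes, which held for 78.2% of all genes in KO4 and 62.7% in KO8. KO4 and KO8 libraries did not overlap for any of them either, as for 79.2% of all genes.

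Lefty1 was the clearest case. It had 141 and 95.6 normalized counts in WT, 601 and 568 in KO4 and 47.9 and 80.9 in KO8. Both KO4 libraries lay far above all others, and both KO8 libraries below WT. The log2 fold change was 2.32 in KO4 (SE 0.26, limma adjusted p = 3.29e-05) and -0.89 in KO8 (SE 0.26, limma adjusted p = 0.0324). Without WT library A the KO8 value was -0.61 and without KO8 library A it was -0.52 (limma adjusted p = 0.2 and 0.245), so that this call rested on those libraries, and it was also lost with only WT and KO8 in the fit (limma adjusted p = 0.0679).

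Lefty2 had 546 and 574 in WT, 984 and 680 in KO4 and 183 and 201 in KO8. The KO8 libraries were close to each other and below WT, and the KO4 libraries differed between themselves but were both above WT. Its log2 fold change was 0.55 in KO4 (SE 0.16, limma adjusted p = 0.0131) and -1.54 in KO8 (SE 0.16, limma adjusted p = 0.000142). The call in KO4 was lost without WT library A (0.51, limma adjusted p = 0.0743) and without KO4 library A (0.28, limma adjusted p = 0.153). The ratio of Lefty1 to Lefty2 counts was 0.26 and 0.17 in WT, 0.61 and 0.83 in KO4 and 0.26 and 0.40 in KO8, so the balance of the paralogues was highest in KO4.

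Nodal itself had 513 and 304 in WT, 519 and 656 in KO4 and 247 and 257 in KO8. WT library A nearly reached KO4, and WT library B lay between KO4 and KO8. The log2 fold change was 0.56 in KO4 (SE 0.21, limma adjusted p = 0.043) and -0.65 in KO8 (SE 0.21, limma adjusted p = 0.0487). Both calls rested on single libraries and on the setting, and were lost in 7 of 14 alternatives in KO4 and 8 of 14 in KO8. Without the trend the limma adjusted p was 0.161 in KO4 and 0.195 in KO8. With only WT and the clone in the fit it was 0.0639 and 0.059. The KO8 call was also lost with a pseudocount of 0.5 (limma adjusted p = 0.0574). In KO4 the value was 0.94 without WT library A, 0.19 without WT library B (limma adjusted p = 0.345) and 0.39 without KO4 library B (limma adjusted p = 0.236), and the call was also lost (limma adjusted p = 0.0735 and 0.0741) without KO8 library A or B, which left the value the same. In KO8 it was -0.27 without WT library A (limma adjusted p = 0.282), -1.02 without WT library B, and -0.62 and -0.68 without KO8 library A or B (limma adjusted p = 0.22 and 0.167).

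Gdf3, a ligand expressed by pluripotent cells, had 48.5 and 48.3 in WT, 167 and 77.8 in KO4 and 1.9 and 10.2 in KO8, where these are 2 and 10 reads. It fell by 3.12 on the log2 scale in KO8 (SE 0.60, limma adjusted p = 0.00435). In KO4 the log2 fold change was 1.22 (SE 0.60) with a limma adjusted p of 0.107, which came to 0.0319 without KO8 library A and 0.0404 without KO8 library B. Without KO4 library A the value was 0.67 (limma adjusted p = 0.476), and without KO4 library B it was 1.77 (limma adjusted p = 0.0633).

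Cer1 and Foxh1 did not follow the Lefty genes. Cer1 had 531 and 235 in WT, 73.9 and 93.6 in KO4 and 138 and 210 in KO8, and it was lower in both clones. It fell by 2.08 on the log2 scale in KO4 (SE 0.34, limma adjusted p = 0.000449) and by 1.05 in KO8 (SE 0.34, limma adjusted p = 0.0466). The WT libraries differed more than those of either clone. The KO8 call was lost in 8 of 14 alternatives, among them a fit with only WT and KO8 (limma adjusted p = 0.0524). Without WT library A the KO8 value was -0.47 (limma adjusted p = 0.322), without WT library B it was -1.63, and without KO8 library A or B it was -0.75 or -1.35 (limma adjusted p = 0.317 and 0.0785).

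Foxh1, the nuclear partner of SMAD2 and SMAD3, had 965 and 813 in WT, 654 and 768 in KO4 and 1470 and 1561 in KO8. Its reads were recovered on the condition that libraries of a group lie near each other. Under it 99.67% of 302 simulated sets at pooled means of 900 to 1500 were right. The simulation, with independent reads and 1 fixed spread, gave a set for 17.7% of genes in this range, against 36.8% in the real CM data. Its accuracy may therefore not hold for these reads. Foxh1 rose by 0.77 on the log2 scale in KO8 (SE 0.10, limma adjusted p = 0.000625), the opposite of the Lefty genes in that clone. In KO4 it fell by 0.32 (SE 0.10, limma adjusted p = 0.0237). The KO4 call was lost when libraries were scaled to their upper quartile (-0.25, limma adjusted p = 0.0619) or centred on their median gene (-0.09, limma adjusted p = 0.491), a centring that moved the median of all genes in KO4 to 0.17. It was also lost without WT library A (-0.20, limma adjusted p = 0.165) and without KO4 library A (-0.21, limma adjusted p = 0.189).

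**Figure D2:**
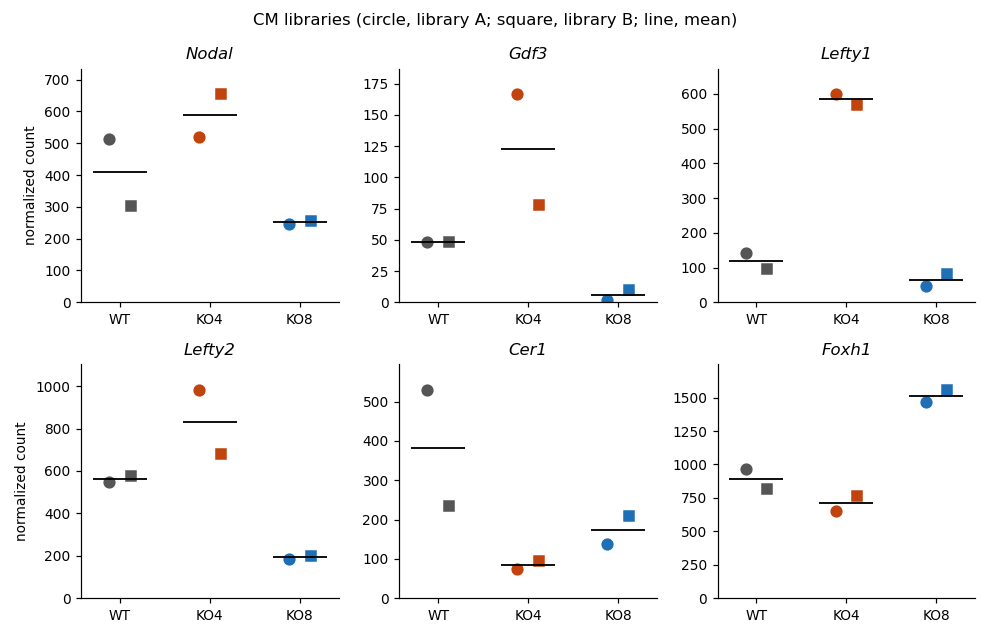
Normalized counts (vertical axes, linear and starting at 0) of the 6 genes recovered in CMs, in the 2 libraries of WT, KO4 and KO8, with the mean as a line. For Lefty1 both KO4 libraries (601 and 568) lie above all others, whereas for Foxh1 both KO8 libraries (1470 and 1561) do, and Cer1 is highest in WT (531 and 235).

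The clones were then set against each other, a contrast added after the values were seen. All 6 genes differed between KO4 and KO8 in CMs, 4 higher and 2 lower in KO4, where 53.4% of all genes differed (23% higher and 30.3% lower). The difference KO4 minus KO8 on the log2 scale was 4.34 for Gdf3 (SE 0.60, limma adjusted p = 0.000142), 3.21 for Lefty1 (SE 0.26, limma adjusted p = 2.8e-06), 2.09 for Lefty2 (SE 0.16, limma adjusted p = 1.62e-06) and 1.21 for Nodal (SE 0.21, limma adjusted p = 0.000706). It was -1.10 for Foxh1 (SE 0.10, limma adjusted p = 9.74e-06) and -1.02 for Cer1 (SE 0.34, limma adjusted p = 0.0257). The Cer1 difference was -0.72 without KO8 library B and -0.86 without KO4 library A (limma adjusted p = 0.209 and 0.118). The other 5 differences kept their direction and their side of the threshold under every alternative that could be run. These were 13 for Foxh1, whose reads were not recovered without the condition on libraries of a group, and 14 for the others.

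For the members with no value per library, the difference between the clone means follows from the pooled means, because the WT part cancels, but it has no replicate error and no test. Tdgf1 in CMs had 110 normalized counts more in KO4 than in KO8, with at most 7 of error from the scaling of the WT libraries, which is 7.57% of its pooled mean. Acvr2b had 987 more in KO4 (at most 19 of error, 26.7% of its pooled mean). The difference of the co-receptor was thus small beside a pooled mean that includes WT. For Tdgf1 36 sets of reads fitted, even with libraries of a group near each other. One had 223.8 and 171.4 in WT with 2729.6 and 2731.9 in KO4. Another had 2952.1 and 2014.8 in WT with 418.7 and 471.1 in KO4. The size of the difference beside the clones' own levels is therefore not known.

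The summed level of pluripotent cell markers in CMs was, like Nodal, Lefty1 and Lefty2, above WT in KO4 and below it in KO8. Of 7 such markers, 5 were recovered, and their summed level was 1172 to 1464 in WT, 2605 to 3592 in KO4 and 455 to 474 in KO8, with none at 0 in any library. Nanog had 359 and 515 in WT, 1412 and 1210 in KO4 and 139 and 176 in KO8. Zfp42 (Rex1) had 129 and 175 in WT, 669 and 417 in KO4 and 36.6 and 30.7 in KO8. Among the 5, Klf4 was the exception in KO4, with 113 and 87.3 against 265 and 282 in WT. Some markers of other cells did the same. Pou3f1, of the primed epiblast list, rose by 2.21 on the log2 scale in KO4 and fell by 0.96 in KO8 (limma adjusted p = 1.34e-06 and 0.00195), and Fgf5 of that list was not called in either clone. The sum of 4 of 7 neural progenitor markers was 167 to 191 in WT, 3117 to 3228 in KO4 and 150 to 162 in KO8, and Map2 of this list rose by 1.70 in KO4 and fell by 0.92 in KO8 (limma adjusted p = 9.64e-05 and 0.0134). Fabp7 rose by 1.53 in KO4 (limma adjusted p = 0.00909), with -0.78 in KO8 (limma adjusted p = 0.204). Pax6 was higher in both clones (5.52 and 0.61, limma adjusted p = 3.47e-09 and 0.00998). The summed level of 2 of 6 endoderm markers, Sox17 and Foxa2, was 1079 to 1735 in WT, 108 to 211 in KO4 and 1781 to 1812 in KO8. This sum was thus low in KO4 but not in KO8, whereas Cer1 was lower in both clones. The reads of Sox17 in it were recovered on the condition on libraries of a group. The part of these cell type differences in the values of the Nodal pathway genes was not tested.

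**Figure D3:**
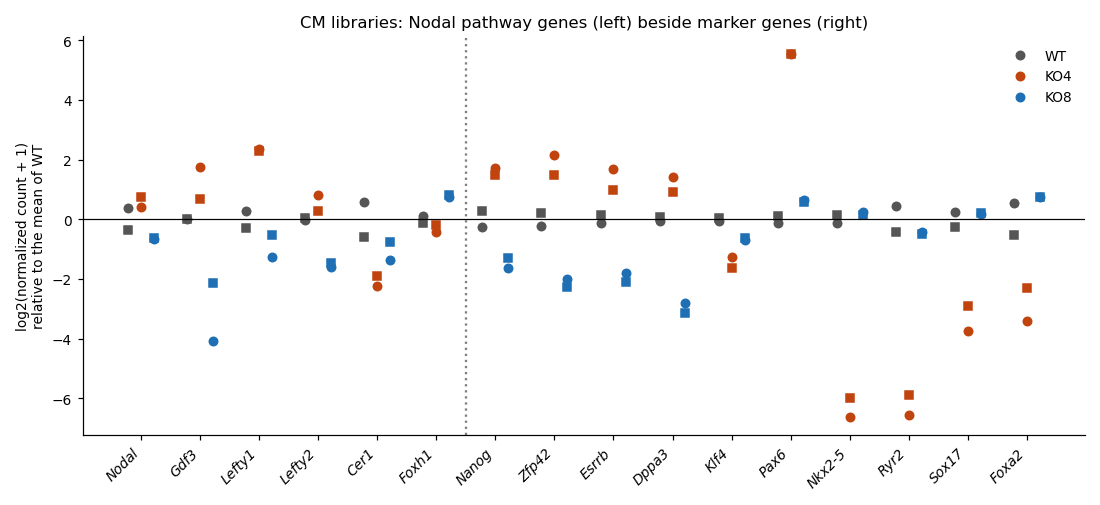
Level in each CM library relative to the mean of WT, as log2(normalized count + 1), for 6 Nodal pathway genes (left of the dotted line) and 10 marker genes (right), with library A as a circle and library B as a square. Gdf3, Lefty1 and Lefty2 lie on the same side as Nanog, Zfp42, Esrrb and Dppa3 in each clone. Klf4, of the same marker list, lies below WT in both clones. Nkx2-5 and Ryr2 lie far below WT in KO4 alone.

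In NPCs none of the 6 genes tested was called in either clone, where limma called 7.36% of 9561 genes in KO4 and 11.4% in KO8. At an unadjusted p under 0.05, 1977 and 2416 genes passed. Lefty1 had 98.4 and 182 normalized counts in WT, 67.6 and 87.6 in KO4 and 164 and 240 in KO8. The KO4 libraries lay below WT, and the KO8 libraries overlapped it. The log2 fold change was -0.79 in KO4 (SE 0.32, limma adjusted p = 0.198) and 0.56 in KO8 (SE 0.32, limma adjusted p = 0.317).

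Lefty2 had 124 and 231 in WT, 59.9 and 100 in KO4 and 141 and 221 in KO8, with a log2 fold change of -1.12 in KO4 (SE 0.36, limma adjusted p = 0.107). With only WT and KO4 in the fit the adjusted p came to 0.00278 for Lefty2 and 0.0301 for Lefty1 in KO4, and it also fell under the threshold without KO8 library A (0.0038 and 0.0295) or B (0.003 and 0.0274), while the fold changes stayed the same. The fold changes moved with the WT and KO4 libraries. Without WT library B they were -0.35 for Lefty1 and -0.67 for Lefty2 (limma adjusted p = 0.716 and 0.531), and without WT library A -1.23 and -1.56 (limma adjusted p = 0.174 and 0.164). Without KO4 library A Lefty2 was -0.75 (limma adjusted p = 0.527). Nodal had 62.5 and 88.7 in WT, 51.2 and 55.3 in KO4 and 84.6 and 126 in KO8. The KO4 libraries lay below WT for 5 of the 6 genes, and groups did not overlap for 54.8% of all genes in that comparison. KO8 and WT were apart for 1 of the 6 (53.6% of all genes), and KO4 and KO8 for 5 of the 6 (46.6%).

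Foxh1 in NPCs had 37.9 and 53.2 in WT, 24.1 and 21.9 in KO4 and 45 and 73 in KO8. Gdf3 had 43.5 and 60.5 in WT, 22.2 and 37.6 in KO4 and 38.7 and 98.0 in KO8. Tdgf1 was the member whose KO4 libraries overlapped WT, with 95.6 and 140 in WT, 117 and 147 in KO4 and 141 and 327 in KO8. Without KO8 library A its log2 fold change in KO8, 0.89 (SE 0.37, limma adjusted p = 0.165), became 1.49 (limma adjusted p = 0.000121), which rests on KO8 library B alone. Acvr2b was not recovered, and its mean was 17 normalized counts higher in KO4 than in KO8 (at most 4 of error), or 0.451% of its pooled mean.

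The libraries of a group differed in NPCs in a way that the genes shared. Library B was above library A for 6 of 6 genes in WT, 5 of 6 in KO4 and 6 of 6 in KO8. The median log2 ratio of B to A over the 6 genes was 0.52 in WT, 0.35 in KO4 and 0.66 in KO8, beside -0.00, -0.01 and 0.04 over all genes tested. The summed level of pluripotent cell markers had the same order in each genotype. The sum of 6 of the 7 markers was 1270 in WT library A and 1982 in B, 1201 and 1297 in KO4, and 1891 and 3405 in KO8, with none at 0. Within the KO4 sum Pou5f1 (322 and 294) and Esrrb (242 and 210) went the other way. The sum of 4 of 7 neural progenitor markers was 273 and 404 in WT, 913 and 1042 in KO4 and 773 and 1791 in KO8. The part of these cells in the spread of the Nodal pathway genes was not tested. Such an order was not limited to NPCs. In CMs library B was above library A for 1 of the 6 genes tested in WT, 3 in KO4 and 6 in KO8. The median log2 ratio of B to A there was -0.40, 0.07 and 0.37, beside 0.02, 0.01 and -0.01 over all genes tested.

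**Figure D4:**
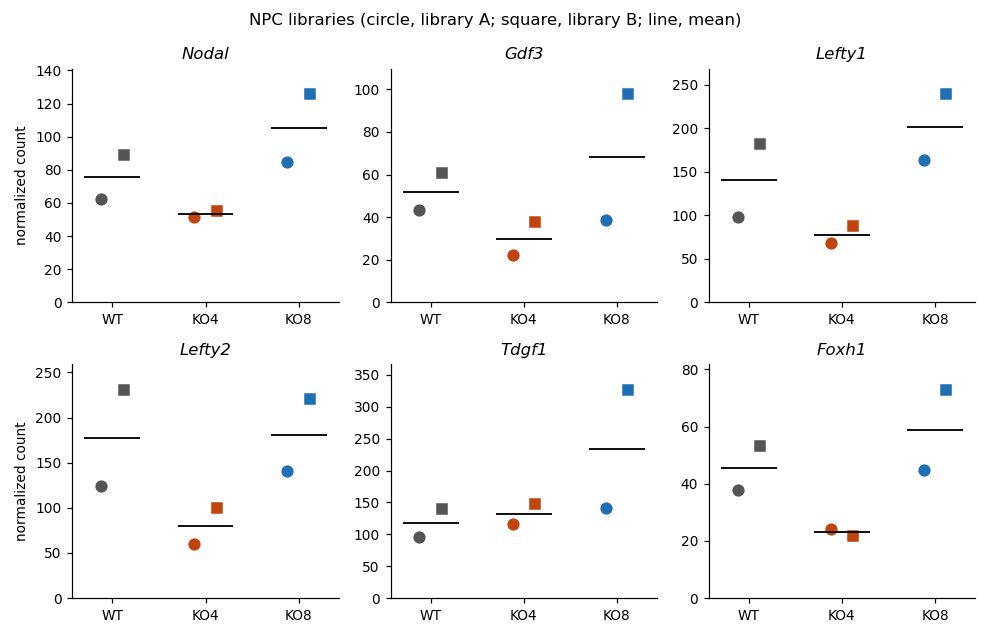
Normalized counts (vertical axes, linear and starting at 0) of the 6 genes recovered in NPCs, in the 2 libraries of WT, KO4 and KO8, with the mean as a line. Library B (square) is above library A (circle) in all but the KO4 libraries of Foxh1 (24.1 and 21.9), and KO8 library B is the highest for Nodal, Lefty1, Tdgf1, Gdf3 and Foxh1.

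Between the clones, the difference KO4 minus KO8 in NPCs was -0.94 for Nodal (SE 0.30, limma adjusted p = 0.173) and -1.35 for Lefty1 (SE 0.32, limma adjusted p = 0.0821), and 0 of the 6 genes were called, where 1.22% of all genes were (1510 genes at an unadjusted p under 0.05). Without KO8 library A, which leaves library B as the lone KO8 sample, assumed to vary like the other groups, all 6 were called, with differences of -1.23 for Nodal to -1.73 for Gdf3 (limma adjusted p = 0.0107 and 0.00485). Without KO8 library B the differences shrank to -0.66 for Nodal, -0.86 for Lefty2, -0.41 for Gdf3 and -0.11 for Tdgf1, none of them called (limma adjusted p = 0.346, 0.161, 0.716 and 0.908), and Lefty1 alone was called (-1.08, limma adjusted p = 0.0464). Without KO4 library A none was called, with -0.81 for Lefty2 and -0.70 for Gdf3 (limma adjusted p = 0.71 and 0.824).

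The effect of a clone in CMs was compared with its effect in NPCs in 1 fit over the 12 libraries, also a contrast added after the values were seen. For KO4 it differed for Lefty1 by 3.11 on the log2 scale (SE 0.45, limma adjusted p = 0.000105) and for Lefty2 by 1.66 (SE 0.42, limma adjusted p = 0.00706), where 35.8% of 8185 genes differed. Both held under every alternative tried, with adjusted p of at most 0.00326 and 0.0443. For KO8 the differences were -3.38 for Gdf3 (SE 0.84, limma adjusted p = 0.0133) and -1.60 for Lefty2 (SE 0.42, limma adjusted p = 0.0172), where 17.1% of genes differed. The Gdf3 call was lost without NPC WT library A (-3.15, limma adjusted p = 0.0654) or CM KO8 library A (-2.40, limma adjusted p = 0.0614). The Lefty2 call was lost without NPC WT library A (-1.16, limma adjusted p = 0.0983), CM WT library B (-1.57, limma adjusted p = 0.0514) or CM KO8 library A (-1.54, limma adjusted p = 0.0686). Foxh1 was not called in either clone, with 0.61 in KO4 (SE 0.32, limma adjusted p = 0.147) and 0.43 in KO8 (SE 0.32, limma adjusted p = 0.406).

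**Figure D5:**
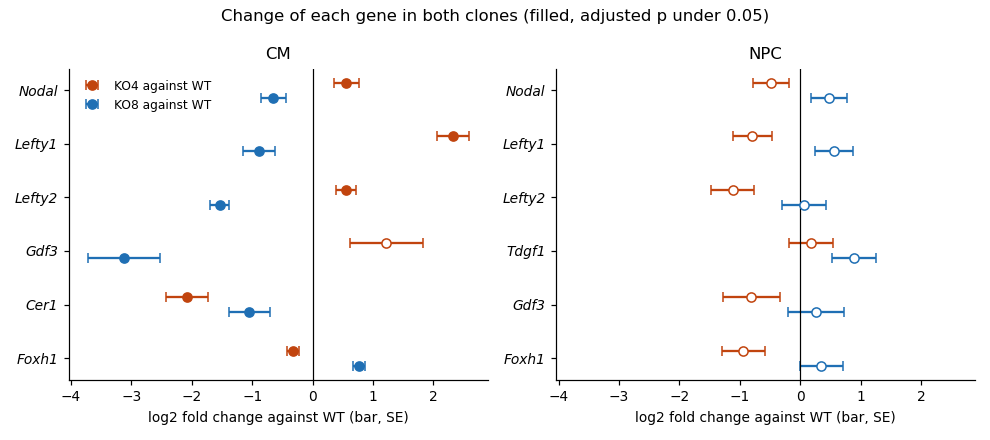
Log2 fold change against WT (horizontal axes, bars show the SE) of the genes tested in CMs (left) and NPCs (right), for KO4 and KO8, with filled points for an adjusted p under 0.05. In CMs the clones lie on opposite sides of 0 for 5 of the 6 genes and on the same side for Cer1 (-2.08 and -1.05), and in NPCs no point is filled.

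In primed cells Foxh1 was the gene with values per library. More than 1 set of reads gave its pooled means. The set used was the only one found with libraries of a group near each other, a condition that also limits the spread between them. It had 819 and 732 normalized counts in WT, 819 and 874 in KO4 and 927 and 920 in KO8, and the KO8 libraries were the highest. Its log2 fold change was 0.25 in KO8 (SE 0.08, limma adjusted p = 0.0193), where 14.5% of 9328 genes were called (7.55% higher), and 0.13 in KO4 (SE 0.08, limma adjusted p = 0.26), where 19.4% were. The KO8 call was lost without WT library B (0.17, limma adjusted p = 0.295), KO8 library A (0.25, limma adjusted p = 0.102) or KO8 library B (0.26, limma adjusted p = 0.0913). Among sets with libraries of a group near each other, the only ones sought at its level, 2 fitted the pooled means of Nodal. One gave 988.5 and 1163.7 in WT, 1147.2 and 1431.1 in KO4 and 1480.9 and 1295.1 in KO8. The other gave 1227.1 and 1315.4 in WT, 1073.9 and 1114.1 in KO4 and 1205.9 and 1179.7 in KO8. They place KO8 on opposite sides of WT, so no direction is given.

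The pooled means also give differences between the clones in stem cells, of which those of Lefty2 and Lefty1 in primed cells and of Lefty2 in naive cells were the largest as a share of the pooled mean. In primed cells the KO4 mean minus the KO8 mean of Lefty2 was -633 normalized counts (at most 4 of error from the scaling), a size of 43.7% of its pooled mean, and that of Lefty1 was -684 (at most 6 of error), or 26.4%. In naive cells the difference was -2928 for Lefty2 (at most 15 of error), or 19.9%, -1981 for Tdgf1 (12.7%), -505 for Lefty1 (11.7%) and 293 for Foxh1 (13.6%). Nodal, Gdf3 and Acvr2b differed by at most 8.28% at both stages, and in primed cells Tdgf1 differed by 8.7% and Foxh1 by 9.39%. The pooled means of the KO4 and KO8 tables lay over 5% apart for 4 of 7 genes in naive cells, 2 of 7 in primed cells, 6 of 7 in NPCs and 7 of 8 in CMs. The same held for 42.8%, 39.1%, 51.9% and 79.4% of all genes with a mean of at least 10. Without replicate error none of these differences was tested. Lefty1 and Lefty2 were lower in KO4 than in KO8 in naive and primed cells and higher in KO4 in CMs.

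The wider pathway was described with a list of 26 further genes for ligands, processing enzymes, antagonists, receptors, SMADs and their regulators, of which those of moderate level could be tested. In CMs, 8 of the 26 were tested. KO4 had 1 called higher and 2 lower, where 23.3% and 31.3% of all genes were, and KO8 had 3 higher and 3 lower, where 10.9% and 12.5% were. The median log2 fold change of the 8 was -0.10 in KO4 and 0.08 in KO8, beside -0.06 and -0.01 over all genes. Genes outside the naming rule are named here because the counts are small, after their values were seen. Cfc1 (Cryptic), a co-receptor of the same family as Tdgf1, had 128 and 53.2 normalized counts in WT, 30.8 and 28.4 in KO4 and 576 and 502 in KO8, so the clones lay on opposite sides of WT. Its log2 fold change was -1.45 in KO4 (SE 0.34, limma adjusted p = 0.00431) and 2.69 in KO8 (SE 0.34, limma adjusted p = 0.000447). Fst, follistatin, which binds activins, rose by 1.68 in KO4 (SE 0.11, limma adjusted p = 8.45e-07). It fell by 1.04 in KO8 (SE 0.11, limma adjusted p = 0.000233). Both were in the direction of the Lefty genes in that clone. The reads of Fst were recovered on the condition on libraries of a group. Pcsk5, a convertase, fell by 1.24 in KO4 and rose by 0.94 in KO8 (limma adjusted p = 4.42e-05 and 0.00129). In KO8 Dand5, an antagonist related to Cer1, was also higher, and Inhba, an activin subunit, and Pcsk6, a convertase that cleaves Nodal, were lower.

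In NPCs 10 of the 26 were tested and 1, Pcsk5, was called in each clone, where 7.36% of all genes were called in KO4 and 11.4% in KO8. It was lower in both clones, with 332 and 328 in WT, 217 and 209 in KO4 and 191 and 175 in KO8. Its log2 fold change was -0.63 in KO4 (SE 0.15, limma adjusted p = 0.0366) and -0.85 in KO8 (SE 0.15, limma adjusted p = 0.00852). In primed cells 12 were tested, and 1 was called in KO4 and 3 in KO8, where 19.4% and 14.5% of all genes were. Furin, a convertase of Nodal, was called higher in KO4, and in KO8 Dand5 was called higher and Inhbb and Acvr1b lower, with log2 fold changes between -0.33 and 0.91. The median log2 fold change was 0.15 and 0.13 in NPCs and -0.03 and 0.05 in primed cells for KO4 and KO8, beside medians of all genes between -0.03 and -0.00.

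A second list held 13 genes that respond to Nodal in the early embryo. In CMs 11 were tested. In KO4 4 were called lower, namely Sox17, Foxa2, Lhx1 and Fgf8, and in KO8 3 were called higher, namely Mesp1, Mixl1 and Gsc. Over all genes, 31.3% were called lower in KO4, near the share of the list, and 10.9% higher in KO8. Sox17 and Foxa2, endoderm transcription factors, fell by 3.32 and 2.87 in KO4 (limma adjusted p = 1.38e-06 and 7.61e-05). Mesp1, a marker of cardiac mesoderm, rose by 2.82 in KO8 (limma adjusted p = 0.00399), from 13.1 and 4.9 normalized counts in WT to 79.8 and 50.2. The median log2 fold change was 0.06 in KO4 and 0.66 in KO8. Eomes, an early target of the pathway, had 935 and 404 in WT, 557 and 736 in KO4 and 817 and 1059 in KO8, so that each clone overlapped WT. In NPCs 5 were tested and 1, Wnt3, was called, higher in KO8 (1.18, SE 0.33, limma adjusted p = 0.0476), where 11.4% of all genes were called. In primed cells 6 were tested. Otx2, a transcription factor of the epiblast, had 1040 and 1138 in WT, 699 and 684 in KO4 and 791 and 839 in KO8, and fell by 0.65 in KO4 and 0.42 in KO8 (limma adjusted p = 1.47e-08 and 8.95e-05).

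Over the 8 tables, the 5 genes whose level was most like the mean profile of the Nodal pathway genes, among 16241 genes, were Plekha7 (Pearson r = 0.999), Dock5 (0.998), Nln (0.997), Eif1a (0.997) and Tmem97 (0.997). The tables form 4 pairs that share WT libraries and the profile mainly separates stages, so these values are a description. Nodal itself followed the mean profile (r = 0.999), as did Tdgf1 (0.972), Lefty2 (0.918), Foxh1 (0.888), Lefty1 (0.884) and Gdf3 (0.868). Acvr2b ran against it (r = -0.891) and Cer1 was unrelated to it (r = -0.103). Each of the 8 genes is part of this mean, so its r is in part a correlation with itself.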

How the data were processed

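Per the labels, the authors' processing used Trim Galore 0.6.7 for trimming, HISAT2 2.2 with the mm9 build for alignment, featureCounts for counting and DESeq2 1.46.0 for normalization. Strand and multi-mapping settings are not given in the sources used here. The deposited tables, 1 per clone and stage, hold 25209 genes with the base mean, which is the authors' mean normalized signal over the WT libraries and those of 1 clone, and the authors' fold change, standard error, Wald statistic, p-value and adjusted p. The columns of the comparison were not used.

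Whole reads per library were recovered from the base means of the 2 tables of a stage (Python 3.11.15, numpy 2.4.6, numba 0.67.0). The size factor of a library was read from genes with a single read in it and none elsewhere. WT libraries are those whose step appears in both tables. Reads were sought up to a base mean of 900 without condition. Where this did not give 1 set, and from 900 up to 1500, a condition was used. It held that libraries of a group lie within the difference that 99.5% of genes show. Recovered sets covered 22.8% to 36.8% of genes between 900 and 1500, nearly all below, and none above. Genes with 2 reads in 1 library and none elsewhere were more frequent than those with 1 (613 and 417 in CMs), so reads may not be independent, and the limit given for 0 reads of Cer1 covers counting error only and takes reads as independent. Replicate numbers could not be tied to libraries.

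Tests used limma 3.58.1 with a trend, R 4.3.3, genes with a mean of at least 10, a pseudocount of 1 and a threshold of 0.05. On simulated CM data (8706 genes), 94% of 84 genes changed by 1 and 100% of 83 changed by 2 on the log2 scale were called in KO4, and 1.11% of 4228 unchanged genes. These simulated libraries had independent reads and 1 fixed spread for all genes, unlike the real ones. The members, lists and tests were chosen with earlier results of these data known. Named were all 8 members and, from each list, at most 3 genes called in both clones in 1 direction, besides exceptions stated as such.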

Additional observations from a re-analysis of the deposited data

Results flagged for a closer look

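In CMs the effects of the 2 clones differed, by a direct limma test of KO4 against KO8, for Nodal (1.21), Lefty1 (3.21), Lefty2 (2.09), Gdf3 (4.34), Cer1 (-1.02) and Foxh1 (-1.10), given as KO4 minus KO8 on the log2 scale. KO4 and KO8 are 1 clone each, and 53.4% of all genes differed by the same test.

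The effect of KO4 in CMs differed from its effect in NPCs for Nodal (1.04), Lefty1 (3.11) and Lefty2 (1.66). The effect of KO8 differed for Lefty1 (-1.45), Lefty2 (-1.60) and Gdf3 (-3.38). The Nodal difference had limma adjusted p = 0.0403, with 0.0112 to 0.178 over the alternatives, and lay above the threshold without NPC WT library B (0.79), NPC KO4 library A or B (0.98 and 1.09), CM WT library B (0.66), CM KO4 library B (0.87) or either CM KO8 library (1.04). The Lefty1 difference of KO8 had limma adjusted p = 0.0394, with 0.0137 to 0.191 over the alternatives, and lay above it without NPC WT library A (-1.01), NPC KO8 library B (-1.18), CM WT library A (-1.18), CM KO8 library A (-1.08) or any of the KO4 libraries (-1.45).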

How the results depend on the processing

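No paired analysis was possible because the tables carry no replicate numbers that tie libraries to the labels. No naive comparison could be tested, and no count test was run because the unit of the columns used here is not counts, so the planned DESeq2 and replicate block alternatives were not run. Of 728 recomputed values of the 49 tested values of the members, 621 kept direction and side of the threshold, 72 lost the call, 31 gained one and 4 changed sign. The 4, each without 1 library in NPCs, were Tdgf1 in KO4 (-0.092 without WT library A, range -0.092 to 0.451), Lefty2 in KO8 (-0.382 without WT library A and -0.258 without KO8 library B, range to 0.507) and Gdf3 in KO8 (-0.399 without KO8 library B, range to 0.919), and the cause was not tested. Calls in CMs for Lefty1 and Cer1 in KO4 and for Lefty2 and Foxh1 in KO8 held under all alternatives that could be run. So did 5 of the 6 differences between the clones in CMs. For Foxh1 these were 13 alternatives and not 14, because its reads were not recovered without the condition on libraries of a group. Gdf3 in KO8 lost its call without the trend (limma adjusted p = 0.0565). With a pseudocount of 5, Gdf3 in KO4 was called (1.16).

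Counts of called genes moved with the setting. With no minimum on the mean they were 960 in primed KO4 and 631 in primed KO8 (1814 and 1354 as reported). Without the trend KO4 and KO8 had 397 and 39 at the primed stage and 12 and 187 at the NPC stage (704 and 1094 as reported), and CM KO8 had 1308 (2225 as reported). With only the 2 groups compared they were 1702 and 654 in NPCs. Leaving out 1 library gave 1016 to 1829 in primed KO4, 703 to 1507 in primed KO8, 5 to 1707 in NPC KO4, 78 to 2154 in NPC KO8, 4284 to 4916 in CM KO4 and 914 to 2240 in CM KO8. The cause was not tested. Centring on the median gene moved the higher share of calls from 42.7% to 59.7% in CM KO4 and from 43.2% to 57.7% in primed KO4. With 2 libraries per group, small changes in NPCs may not be detectable.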
